A study of Mus musculus with 30 samples.

Results

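The 7 genes described here, Scube1, Lhfpl1, Zap70, Fbln5, Xkrx, Slc13a3 and Rhobtb2, were selected on their hippocampal levels, out of 21412 genes, because mice fed a low dose of methylmercury (MeHg) lay wholly apart from control mice. RNA was sequenced from the hippocampus of 30 male BALB/c mice, 5 in each of 6 groups, with 1 library per mouse. Ctr mice ate feed with no added MeHg, LD mice feed with 0.28 mg/kg and HD mice feed with 5 mg/kg for 11 weeks, after arrival at 2 to 3 weeks of age and 5 days of acclimatization. The Se_Ctr, Se_LD and Se_HD groups carry the same dose labels with selenium (selenium-methionine, by the series title), and their feed levels, duration and age are not given in the sources used here. The levels of Ctr and LD chose the genes, so values in those mice are given as a description with no test. The separation did not use the selenium groups or HD, although earlier results of all groups were known when the genes were chosen. Se_LD against Se_Ctr is a separate comparison of a low dose with its own control in other mice.

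MeHg is an organic mercury compound that crosses into the brain, binds thiol and selenol groups and is toxic to neurons and glia, and selenium compounds are studied as dietary modifiers of that toxicity because mercury binds selenium tightly. The 7 genes belong to no single pathway. Scube1 and Fbln5 encode secreted proteins of the cell surface and matrix, Lhfpl1, Xkrx and Slc13a3 encode membrane proteins, and Zap70 and Rhobtb2 act inside the cell, the first as a kinase downstream of the T cell receptor and the second as an atypical GTPase that serves as an adaptor of Cullin 3 ubiquitin ligases.

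Between 5768208 and 11510521 reads per library were counted on genes. Hippocampal markers were present in every library, among them Prox1 of dentate granule cells (459 to 1341 normalized counts), Wfs1 of CA1 (783 to 2042) and Grik4 of CA3 (335 to 594), while the CA1 marker Pou3f1 was near 0 with a mean of 0.90. A normalized count is the number of reads on a gene divided by the size factor of the library. In bulk tissue, fewer cells of a type and less RNA per cell cannot be told apart. Rhobtb2 was the most abundant of the 7 with a mean of 117 normalized counts per kb of exon over all 30 libraries, followed by Scube1 with 40.3 and Slc13a3 with 23.9. The other four were low, from 9.30 per kb for Zap70 to 3.65 for Xkrx. Xkrx rested on 4 to 20 reads per library and Lhfpl1 on 2 to 36, so their values carry the largest counting error of the set.

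Of 20031 genes tested, 80 (0.399%) had groups of LD and Ctr mice that did not overlap, and of these 17 also averaged 10 or more normalized counts and had an unadjusted p under 0.05 in both the test over 3 groups and the contrast, 11 higher and 6 lower in LD. The 7 candidates are among these 17, and as the same values chose them, these thresholds describe the choice and support nothing. The test over 3 groups also holds HD. Among these 17 genes, Lhfpl1, Scube1 and Zap70 had the highest LD against Ctr differences, at 0.99, 0.99 and 0.69 in log2(normalized count + 1). The gene that followed them among the 17, which was not chosen, was 4933407L21Rik at 0.65. On the lower side the candidates were Fbln5 at -0.68, Xkrx at -0.65, Slc13a3 at -0.51 and Rhobtb2 at -0.28, with Per2, not chosen, between them at -0.57 and Efnb2, not chosen, at -0.27. The narrowest separation was that of Rhobtb2, whose highest LD mouse had 686.6 and whose lowest Ctr mouse had 687.4 normalized counts. Over the whole table, the lowest Benjamini-Hochberg adjusted p for any gene in LD against Ctr by limma was 0.999. An unadjusted contrast p under 0.05 was found for 603 of 20031 genes (3.01%).

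**Figure D1:**
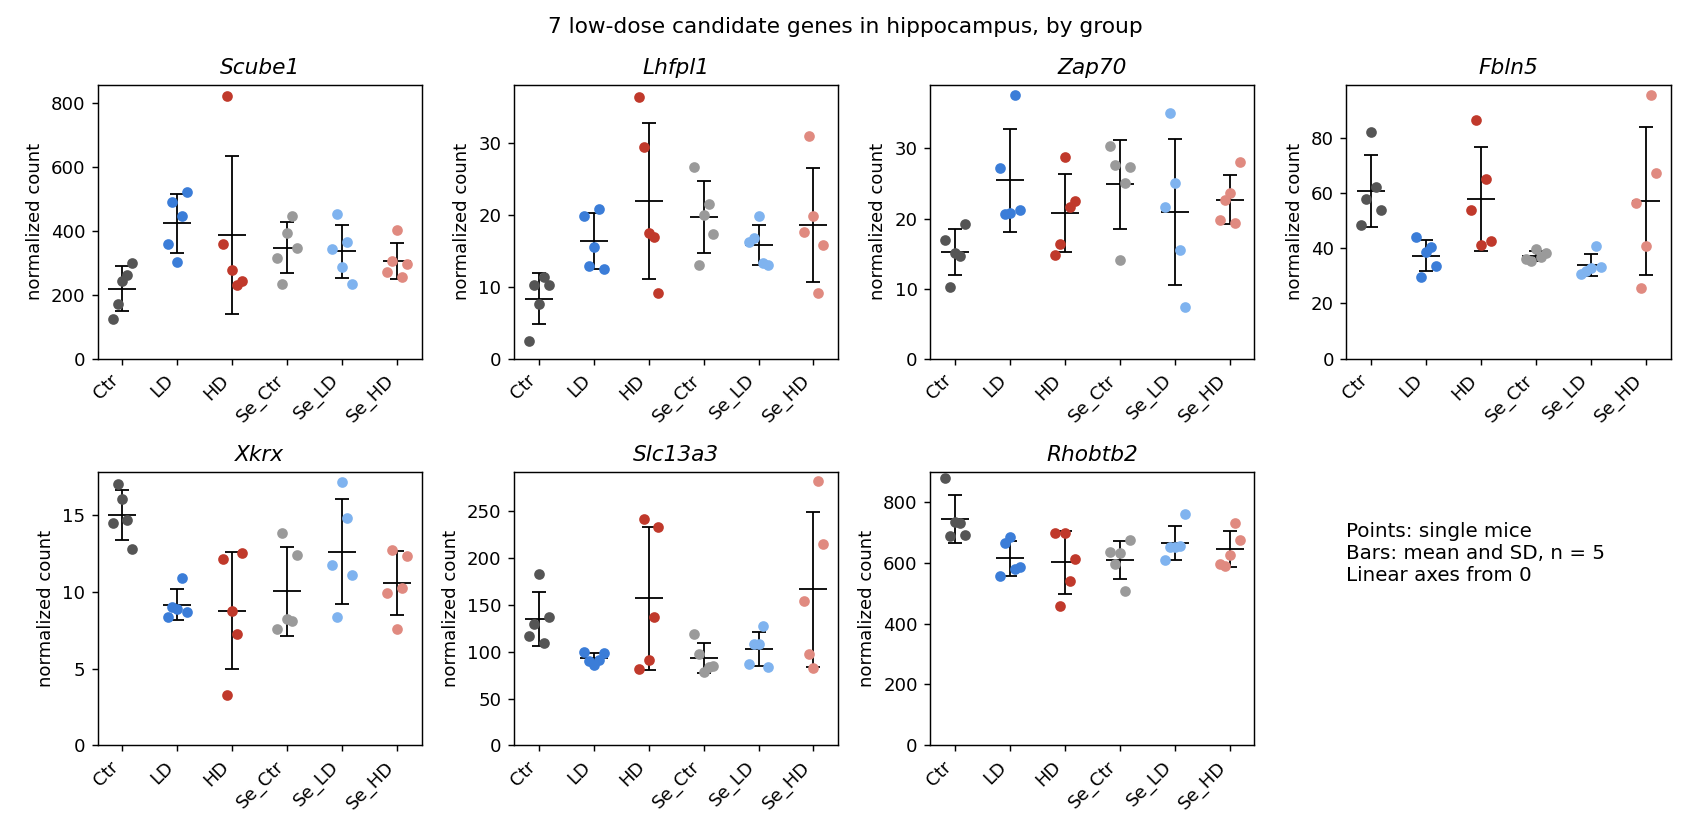
Normalized counts (vertical axes, linear from 0) of the 7 candidate genes in single mice of the 6 groups (horizontal axes), with the mean and SD of each group of 5. The LD mice lie apart from the Ctr mice in all 7 panels because the genes were chosen for that, and the Se_LD mice overlap the Se_Ctr mice in all 7.

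Scube1 (ENSMUSG00000016763, chr15:83433013-83555451, minus strand, NCBIM37) encodes a secreted and membrane-tethered glycoprotein with EGF-like and CUB domains. Its normalized counts in replicates 1 to 5 were 124, 170.1, 242, 260.3 and 299 in Ctr, 359, 489, 302, 446 and 521 in LD, and 360.5, 823, 278, 231 and 242 in HD. The HD mean of 387 ± 249 (SD, n = 5) was set by replicate 2, and the median of HD, 278, lay within the range of Ctr. In the selenium groups the counts were 315, 235, 395, 448 and 345 in Se_Ctr, 344, 454, 286, 364 and 232 in Se_LD, and 271, 304, 401, 255 and 295 in Se_HD. These 3 groups overlapped one another, and 4 of the 5 Se_Ctr mice were above every Ctr mouse.

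Fbln5 (ENSMUSG00000021186, chr12:102984775-103057265, minus strand) encodes fibulin-5, a matrix protein needed for the assembly of elastic fibres. It had 48.3, 57.9, 82.2, 62.0 and 53.7 normalized counts in Ctr, 43.9, 29.6, 38.5, 40.5 and 33.6 in LD, and 53.8, 86.5, 41.0, 65.1 and 42.5 in HD. HD mice overlapped both the Ctr and the LD range. Under selenium it had 36.1, 35.4, 39.9, 36.7 and 38.1 in Se_Ctr, 30.7, 31.8, 33.0, 40.6 and 33.3 in Se_LD, and 56.4, 25.4, 40.6, 95.6 and 67.3 in Se_HD. Se_Ctr was the tightest group of this gene (SD 1.75) and Se_HD the widest (SD 26.8), with 4 Se_HD mice above and 1 below every Se_Ctr mouse.

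Slc13a3 (ENSMUSG00000018459, chr2:165230528-165298730, minus strand) encodes the sodium-coupled dicarboxylate transporter NaDC3, which carries succinate, alpha-ketoglutarate and N-acetylaspartate into cells. Its counts were 117, 129, 183, 109 and 137 in Ctr, 99.4, 90.1, 85.9, 91.0 and 98.3 in LD, and 82.0, 242, 90.7, 137 and 233 in HD. LD was narrow (SD 5.73), and HD split into 2 mice below every Ctr mouse, 2 above and 1 within the Ctr range. In the selenium groups the counts were 119, 97.7, 78.5, 84.2 and 85.2 in Se_Ctr, 86.7, 109, 108, 128 and 83.3 in Se_LD, and 155, 98.0, 83.1, 282 and 216 in Se_HD. Se_HD showed a spread like that of HD, with 3 mice above every Se_Ctr mouse and 2 within the Se_Ctr range. An annotated gene on the other strand, Gm14437, overlaps Slc13a3, and whether reads were counted by strand is not given in the sources used here.

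Lhfpl1 (ENSMUSG00000041700, chrX:141724902-141783632, minus strand) encodes a tetraspan membrane protein of the LHFPL family, some of whose other members are auxiliary subunits of receptors and channels. It had 2.42, 10.2, 7.56, 11.3 and 10.2 normalized counts in Ctr, 19.9, 12.9, 15.6, 20.8 and 12.4 in LD, and 36.3, 29.4, 17.4, 16.9 and 9.16 in HD. Replicate 1 of Ctr held only 2 reads of the gene, and 4 of the 5 HD mice lay above every Ctr mouse. The selenium mice had 26.6, 13.0, 19.9, 21.5 and 17.4 in Se_Ctr, 16.2, 16.7, 19.8, 13.3 and 13.0 in Se_LD, and 17.5, 30.9, 19.8, 9.11 and 15.7 in Se_HD. All 5 Se_Ctr and all 5 Se_LD mice lay above every Ctr mouse.

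Xkrx (ENSMUSG00000031258, chrX:130683582-130696615, minus strand) encodes a multipass membrane protein of the XK family, which includes phospholipid scramblases. Its counts were 14.5, 17.0, 16.1, 14.7 and 12.8 in Ctr, 8.37, 9.01, 8.89, 10.9 and 8.71 in LD, and 12.1, 3.27, 8.72, 7.23 and 12.5 in HD. All LD and all HD mice lay below every Ctr mouse. In the selenium mice the counts were 7.60, 13.8, 8.21, 8.06 and 12.4 in Se_Ctr, 11.7, 8.36, 17.1, 14.8 and 11.1 in Se_LD, and 9.91, 12.7, 7.55, 10.2 and 12.3 in Se_HD. Se_LD reached to the top of the Ctr range. Nox1, annotated on the same strand, overlaps Xkrx, and with a mean of 1.83 normalized counts it was far lower.

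Zap70 (ENSMUSG00000026117, chr1:36818695-36839663, plus strand) encodes the Syk-family kinase that binds the phosphorylated zeta chain of the T cell receptor. It had 16.9, 10.2, 15.1, 14.7 and 19.2 normalized counts in Ctr, 27.2, 20.6, 20.7, 37.6 and 21.2 in LD, and 14.8, 16.3, 28.8, 21.7 and 22.5 in HD. HD lay across both groups. The selenium mice had 30.4, 27.7, 14.1, 25.1 and 27.3 in Se_Ctr, 21.7, 35.1, 25.0, 15.5 and 7.41 in Se_LD, and 19.8, 22.7, 23.6, 19.4 and 28.1 in Se_HD. Se_LD covered the widest range of any group, with both the lowest Zap70 value of all 30 mice and 1 of the highest. Defining T cell markers were near 0 in this tissue, with Cd247, the zeta chain itself, at 0 in 15 of 30 libraries, Cd2 in 22 and Trbc2 in 19, and the 9 measured of 14 T cell markers summed to 28.9 to 71.6 normalized counts per library. That sum lay between 37.3 and 51.4 in LD and between 42.5 and 71.6 in Ctr, so it was not higher in LD.

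Rhobtb2 (ENSMUSG00000022075, chr14:70184797-70212310, minus strand) had 879, 687, 734, 731 and 690.5 normalized counts in Ctr, 555, 667, 687, 578 and 586 in LD, and 698, 458, 698, 541 and 613 in HD. Its spread within groups was small next to its mean, and 3 of the 5 HD mice lay below every Ctr mouse. The selenium mice had 637, 596, 632, 509 and 676 in Se_Ctr, 610.1, 652, 654, 655 and 760.0 in Se_LD, and 598, 590.1, 626, 731 and 677 in Se_HD. All 5 Se_Ctr mice lay below every Ctr mouse, and all 5 Se_LD mice lay above the mean of Se_Ctr.

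The low dose was then compared with its control in the selenium groups, whose values the separation had not used. None of the 7 candidates was called between Se_LD and Se_Ctr by limma (0 of 7, against 288 of 19679 genes, 1.46%, that had an unadjusted p under 0.05 in both the F test over 3 groups and the contrast). No candidate reached an unadjusted contrast p under 0.05, and edgeR and DESeq2 on the recovered reads also called 0 of 7. The Benjamini-Hochberg adjusted p was 0.9998 for each. No candidate had groups that did not overlap, as 99 of 19679 genes (0.503%) had.

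The differences had the sign of LD against Ctr for 1 candidate and the opposite sign for 6. This count was not stable, since Scube1 took the sign of LD without Se_Ctr replicate 3 or 4 (0.0024 and 0.048), without Se_LD replicate 5 (0.072) and with choroid plexus markers as covariate (0.049). Fbln5, the exception, differed by -0.14 (SE 0.24, 95% interval -0.64 to 0.36) where LD differed from Ctr by -0.68. Scube1 differed by -0.05 (95% interval -0.40 to 0.30) where LD differed by 0.99. Zap70 differed by -0.35 (-0.99 to 0.28) against 0.69, and with 1 library left out it ran from -0.57 without Se_LD replicate 2 to -0.044 without Se_LD replicate 5. The 95% intervals of all 7 included 0. The LD differences set beside them are sizes that chose the genes, so the 2 sizes are not a test of each other. The exact two-sided permutation p of 5 mice against 5 ran from 0.111 for Fbln5 to 0.817 for Scube1, where the smallest p this design allows is 0.00794.

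**Figure D2:**
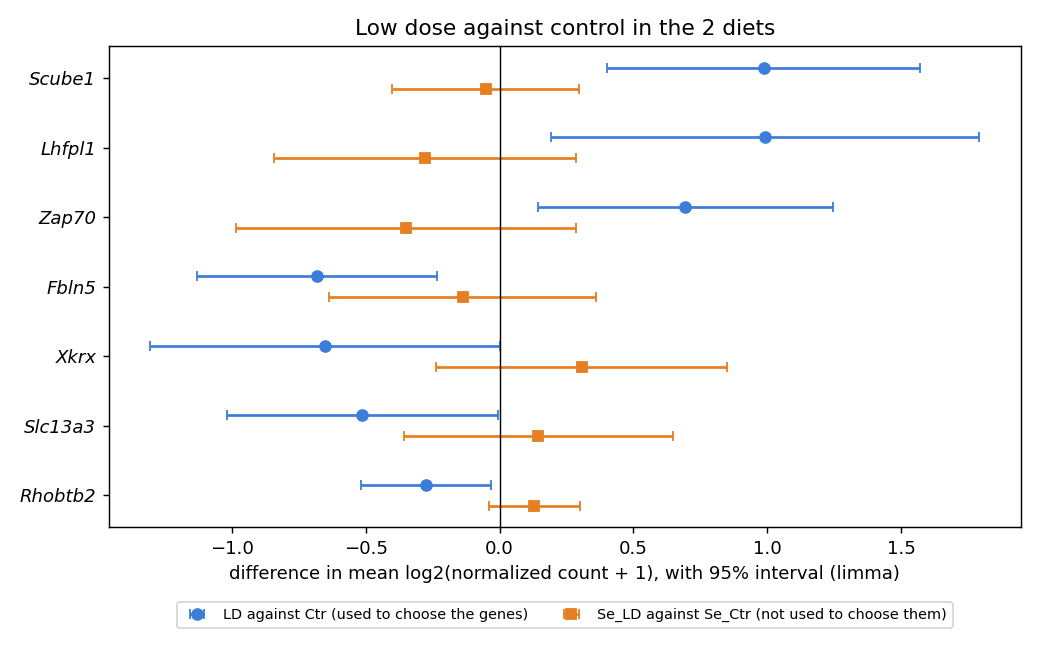
Difference in mean log2(normalized count + 1) of LD against Ctr (circles) and of Se_LD against Se_Ctr (squares) for each candidate, with 95% intervals from limma. The circles chose the genes and are a description, and all 7 square intervals include 0.

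Of the 17 separated genes, 5 had the same sign in Se_LD against Se_Ctr and 12, among them Scube1, the opposite sign, while over the 19341 genes tested in both diets 46.29% had the same sign. Among the genes that were not chosen, 4933407L21Rik differed by 0.29 in selenium and 0.65 without it, and 9030425E11Rik by -0.30 and 0.35.

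**Figure D3:**
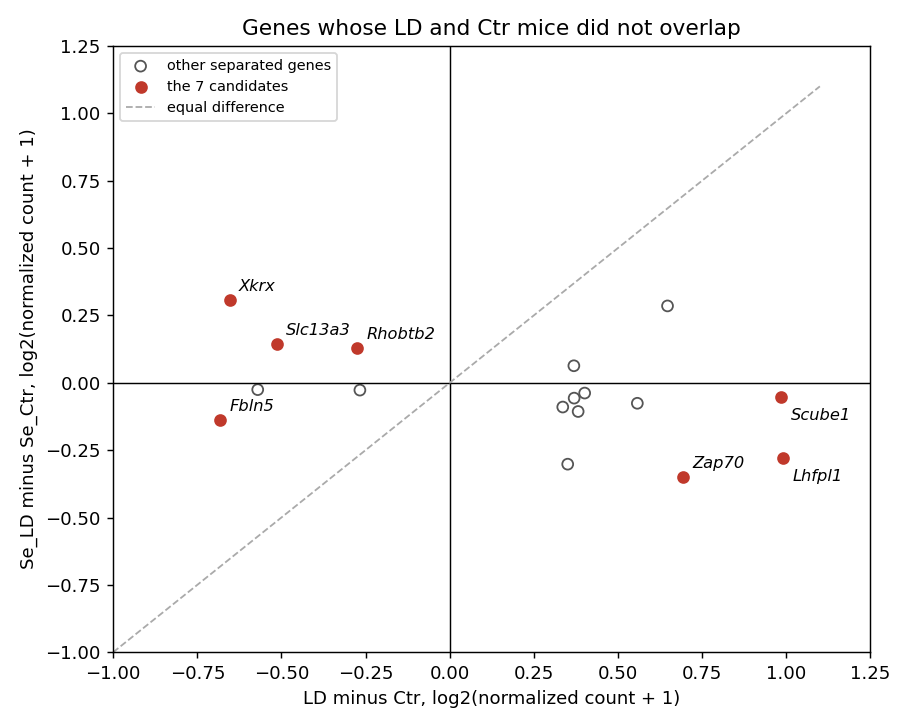
Each point is 1 of the 17 genes whose LD and Ctr mice did not overlap, by its difference in log2(normalized count + 1) without selenium (horizontal axis) and with selenium (vertical axis). The vertical values run from -0.35 for Zap70 to 0.31 for Xkrx, and the horizontal values are those that chose the genes. The dashed line marks equal differences.

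The selenium controls were also set beside Ctr and LD by their levels. Mean normalized counts of Scube1 were 219 ± 70.7 (SD, n = 5) in Ctr, 423 ± 91.5 in LD and 348 ± 80.7 in Se_Ctr. Fbln5 stood at 60.8 ± 13.0 in Ctr, 37.2 ± 5.67 in LD and 37.2 ± 1.75 in Se_Ctr. Slc13a3 stood at 135 ± 28.9 in Ctr, 92.9 ± 5.73 in LD and 92.9 ± 16.0 in Se_Ctr. For both of the latter genes the Se_Ctr mean was close to that of LD. The means in Ctr, LD and Se_Ctr were 8.34, 16.3 and 19.7 for Lhfpl1, 15.2, 25.5 and 24.9 for Zap70, 15.0, 9.17 and 10.0 for Xkrx, and 744.5, 615 and 610 for Rhobtb2. The genes were chosen for Ctr and LD mice that lay apart, so nothing is read from the place of Se_Ctr between or beyond them. Between Se_Ctr and Ctr, Lhfpl1, Fbln5 and Rhobtb2 did not overlap, and 156 of all 21383 genes (0.73%) did not, and nothing is read from this count either.

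In the order of the 6 group means, Ctr was lowest for Scube1, Lhfpl1 and Zap70, highest for Fbln5, Xkrx and Rhobtb2, and below HD and Se_HD for Slc13a3. Groups that follow each other in these orders had overlapping ranges, except Se_LD and Ctr in Lhfpl1. Neighbours in an order of means are the closest groups, so nothing is read from their overlap.

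At the high dose without selenium, differences from Ctr are given as a description, since Ctr chose the genes and is shared with the LD comparison. Lhfpl1 differed by 1.28 (SE 0.38), Scube1 by 0.70 (SE 0.28), Zap70 by 0.42 (SE 0.26), Xkrx by -0.82 (SE 0.31) and Rhobtb2 by -0.32 (SE 0.12). Fbln5 at -0.10 (SE 0.21) and Slc13a3 at 0.10 (SE 0.24) stood near 0 at the high dose, where the LD values were -0.68 and -0.51. Without HD replicate 2 the Scube1 difference was 0.39. With 1 library left out, Fbln5 ran from -0.26 without HD replicate 2 to 0.0087 without Ctr replicate 3, and Slc13a3 from -0.095 without HD replicate 2 to 0.29 without HD replicate 1. Xkrx was the 1 candidate whose HD and Ctr mice did not overlap, against 343 of 20031 genes (1.71%). Its Ctr mice were chosen to lie apart from LD, so nothing is read from this count. The astrocyte gene Gfap lay between 4080 and 32820 normalized counts in HD mice and between 1430 and 1988 in Ctr mice, with the highest value in HD replicate 2, which also held the highest Scube1, Fbln5 and Slc13a3 and the lowest Xkrx and Rhobtb2 of its group. Its part in these values was not tested.

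At the high dose with selenium, Slc13a3 was higher in Se_HD than in Se_Ctr by the unadjusted limma rule. It averaged 167 ± 83.0 normalized counts (SD, n = 5) in Se_HD and 92.9 ± 16.0 in Se_Ctr, a log2 difference of 0.71 (SE 0.24, 95% interval 0.20 to 1.21). It was the 1 of 7 candidates that passed the unadjusted limma rule, against 405 of 19679 genes (2.06%), with an adjusted p of 0.9996 by limma, and the exact two-sided permutation p was 0.0952. The mean was raised by Se_HD replicates 4 and 5, and the call was lost without replicate 4 (0.48) or without replicate 5 (0.58), and in limma without trend at the same difference. In these settings the unadjusted contrast p by limma was 0.038, 0.032 and 0.026, and the call was lost only in the F test over the groups. Fbln5 differed by 0.47 (SE 0.24, adjusted p = 0.9996) and was not called by limma, but was called on the recovered reads by edgeR at 0.60 and by DESeq2 at 0.61, and in limma with sets of 6 consecutive library numbers as a covariate. With 1 library left out its difference ran from 0.25 without Se_HD replicate 4 to 0.72 without Se_HD replicate 2, and it was called without Se_HD replicate 2 or without replicate 3 (0.56). The other five candidates lay between -0.17 for Scube1 and 0.09 for Xkrx, and no candidate had Se_HD and Se_Ctr mice that did not overlap, as 157 of 19679 genes (0.798%) had.

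Between Se_HD and Se_LD, Fbln5 and Slc13a3 passed the unadjusted limma rule, against 487 of 19679 genes (2.47%). Fbln5 averaged 57.1 ± 26.8 normalized counts in Se_HD and 33.9 ± 3.92 in Se_LD, a log2 difference of 0.61 (SE 0.24, adjusted p = 0.947 by limma, exact permutation p 0.111). Slc13a3 averaged 103 ± 18.2 in Se_LD, and the difference was 0.56 (SE 0.24, adjusted p = 0.947 by limma, exact permutation p 0.167). Leaving out Se_HD replicate 4 took Fbln5 to 0.39 and Slc13a3 to 0.33, and both calls were lost. The Fbln5 call was also lost without Se_HD replicate 1 or 5 or without Se_LD replicate 1, 2, 3 or 5, where its difference was still 0.52 to 0.61 and, in all of these but Se_HD replicate 5, the call was lost only in the F test over the groups, and that of Slc13a3 without Se_HD replicate 1 or 5 or without Se_LD replicate 1 or 5, where its difference was 0.43 to 0.55. At the same differences, both calls were lost in limma without trend, that of Slc13a3 with only the 2 groups in the fit, and that of Fbln5 with genes of a mean of at least 10.

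Markers of other cells were summed in the same mice. The 8 markers of vascular and leptomeningeal fibroblasts, all measured, summed to 5265 to 7405 normalized counts in Se_HD mice, 2254 to 4865 in Se_Ctr mice and 1556 to 6565 in Se_LD mice, and most of the sum was Igf2. Se_HD replicate 4, the highest in Fbln5 and Slc13a3, had the highest sum of the 30 mice, while Se_HD replicates 2 and 3, with sums of 6562 and 6012, had Slc13a3 within the Se_Ctr range. With the log2 sum as a covariate, chosen after the data were seen, the Slc13a3 difference of Se_HD from Se_Ctr was 0.55 and was not called, and the difference of Se_HD from Se_LD was 0.57 for Fbln5 and 0.41 for Slc13a3, neither called. Over the 20 mice outside Ctr and LD, the log2 sum and Slc13a3 had Pearson r 0.30 (permutation p 0.192, adjusted p 0.562) and Spearman rank correlation 0.30 (permutation p 0.190, adjusted p 0.689), with r 0.14 without the 2 mice farthest from the median sum and -0.00084 with group means removed. For Fbln5 these were r 0.41 (permutation p 0.0712, adjusted p 0.303) and rank correlation 0.42 (permutation p 0.0654, adjusted p 0.402), with r 0.38 and 0.12. Higher correlations were found with other lists. Slc13a3 had r 0.59 with the endothelial sum (permutation p 0.00667, adjusted p 0.183, rank correlation 0.50, permutation p 0.0252, r 0.31 without the 2 farthest mice), r 0.57 with the mural sum (permutation p 0.0080, adjusted p 0.183, rank correlation 0.63, permutation p 0.00354, r 0.47 without them) and r 0.57 with the microglia sum (permutation p 0.0112, adjusted p 0.183, rank correlation 0.35, permutation p 0.135, r 0.17 without them). With group means removed these 3 were 0.67, 0.58 and 0.69. Fbln5 had r 0.56 with the mural sum (permutation p 0.00999, adjusted p 0.183, rank correlation 0.39, permutation p 0.0875, r 0.28 without the 2 farthest mice, 0.59 with group means removed) and r 0.52 with the microglia sum (permutation p 0.0190, adjusted p 0.219, rank correlation 0.51, permutation p 0.0231, r 0.51 and 0.36). None of 98 such relations of the 7 genes to 14 summed marker lists had an adjusted permutation p under 0.05, and the part of these cells in the 2 differences was not tested. The sum of 8 choroid plexus markers ranged from 274 to 37720 over all 30 mice, and 9397 to 34830 in Se_HD and 6240 to 21210 in Se_Ctr overlapped. The mouse with 274, Se_LD replicate 5, also had the lowest fibroblast sum of the 30 mice (1556). The mouse with 37720, Se_LD replicate 4, had a fibroblast sum of 6565. The fibroblast sum is therefore not read as a measure separate from choroid plexus content. With that sum as the covariate, Slc13a3 was still called in Se_HD against Se_Ctr, at 0.70, and in Se_HD against Se_LD neither gene was called, with differences of 0.64 for Fbln5 and 0.54 for Slc13a3 beside 0.61 and 0.56 without the covariate.

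**Figure D4:**
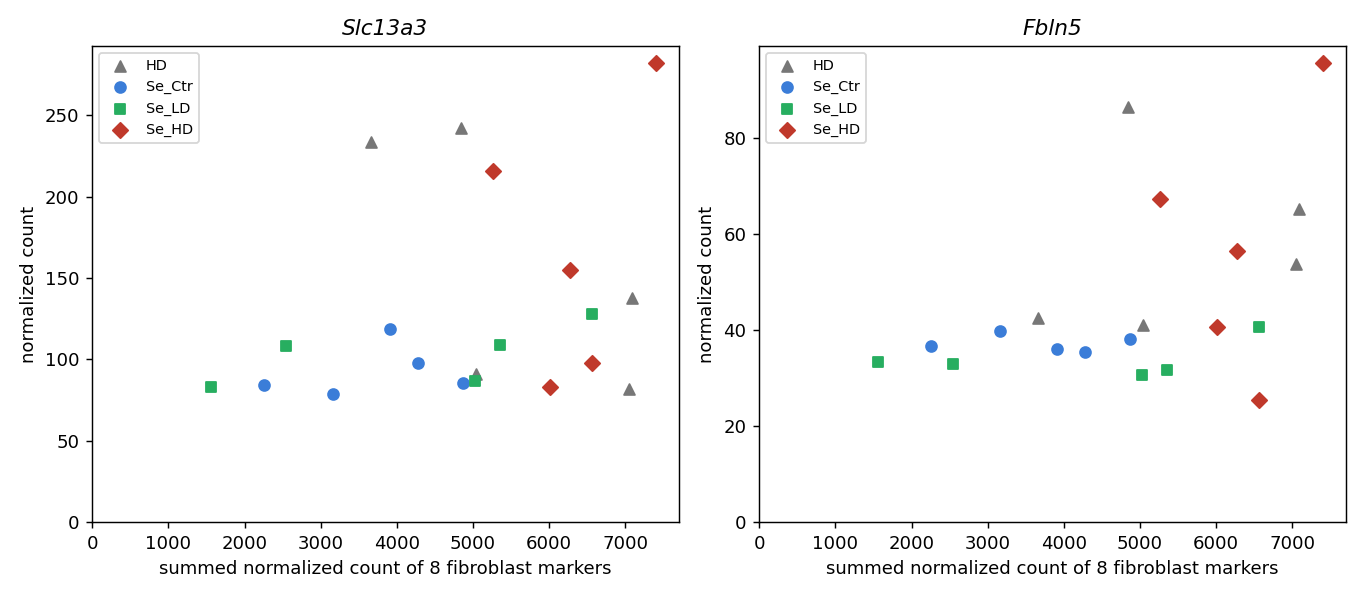
Normalized counts of Slc13a3 (left) and Fbln5 (right) in single mice against the summed normalized count of 8 fibroblast markers, for the 4 groups other than Ctr and LD. The Se_HD mice all lie at sums of 5265 or more, and span 83.1 to 282 in Slc13a3 and 25.4 to 95.6 in Fbln5. Most of the sum is Igf2, and it is not read as separate from choroid plexus content.

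Between the 2 groups labelled as high dose, Se_HD and HD, no candidate was called by limma over all 30 libraries (0 of 7, 0 of 7 at an unadjusted contrast p under 0.05, and 0 of 7 by edgeR and by DESeq2), against 768 of 21383 genes (3.59%). The differences ran from -0.18 for Scube1 (95% interval -0.69 to 0.34) to 0.33 for Xkrx (-0.23 to 0.90), and that of Slc13a3 was 0.08 (-0.45 to 0.61). The intervals allow a difference of up to 0.87 on the log2 scale in Lhfpl1 and of up to 0.32 in Rhobtb2. Se_HD against HD is not free of the choice. HD entered the test over 3 groups that the candidates passed, and the F test over all 30 libraries holds Ctr and LD. Over the 4 comparisons tested, this one among them, 28 exact permutation tests of the candidates gave a lowest p of 0.0952.

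Fbln5 and Slc13a3 varied together in the 20 mice outside Ctr and LD, with Pearson r 0.74 and Spearman rank correlation 0.50 in log2(normalized count + 1), and r was 0.66 after group means were removed. This is a description over mice that share groups. The upstream sequences of these 2 genes are shown because they are the 2 candidates called in Se_HD against Se_LD. Each run is the 200 bases that end 51 bases before a RefSeq start (table build GRCm38.p6), 5′ to 3′ on the strand of the gene. Capitals mark letters that match TGACNNNGC, the core of the antioxidant response element bound by Nrf2, or TGCNCNC. Both were searched on both strands after the values were seen. TGCNCNC is looser than the core of the metal response element bound by Mtf1, TGCRCNC, where R is A or G. The matches in Fbln5, Zap70 and Xkrx have T or C in that place, so none of them holds that core. By exact match on NCBIM37, the Slc13a3 run lies at chr2:165298748-165298947 and the Fbln5 run at chr12:103057380-103057579, both on the minus strand and before the annotated gene.
Slc13a3: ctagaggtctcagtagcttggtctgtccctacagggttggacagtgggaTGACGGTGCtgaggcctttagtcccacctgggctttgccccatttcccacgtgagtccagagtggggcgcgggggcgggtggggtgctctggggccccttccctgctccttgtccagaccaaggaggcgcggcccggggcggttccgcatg
Fbln5: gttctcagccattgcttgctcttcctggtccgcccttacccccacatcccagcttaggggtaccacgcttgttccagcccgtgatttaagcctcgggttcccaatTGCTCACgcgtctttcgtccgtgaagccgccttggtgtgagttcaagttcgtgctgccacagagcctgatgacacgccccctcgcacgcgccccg
Slc13a3 held the first motif once, starting 201 bases before the RefSeq start, and not the second, and Fbln5 held the second once, 145 bases before its start, and not the first. Of 32851 windows of the same length and position, 7.66% held the first motif and 36.9% the second, so a match of the second is common. Of the 7 candidates 5 were matched in the table. Zap70, 205 bases before its start, and Xkrx, on the reverse strand, also held the second motif and not the first, and Scube1 held neither. A match is a description of letters and not a site.

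Genes whose levels followed each candidate closely were sought over the same 20 mice and 14279 genes with a mean of at least 10. For Scube1 they were Adam9 (r 0.91), a membrane metalloprotease, Nptx2 (r 0.89), a synaptic pentraxin induced by neuronal activity, and Aars (r 0.83), the alanyl-tRNA synthetase. HD replicate 2 was the highest mouse in Scube1, and without it these r were 0.82, 0.80 and 0.61. For Slc13a3 they were Smoc1 (0.90) and Anpep (0.89), and for Fbln5 Colec12 (0.89), Thbd (0.89) and Fgl2 (0.89). Anpep is an aminopeptidase of pericytes and Thbd is thrombomodulin of endothelium. Lhfpl1 was followed by Rala (0.92), a small GTPase of exocytosis, and by Jak1 and 6430704M03Rik at 0.83 and 0.82. Xkrx was followed by the sodium channel gene Scn1a (0.86), Gucy1a3 (0.81) and Aifm3 (0.79), which fell to 0.71, 0.65 and 0.53 without HD replicate 2. Zap70 was followed by Asb6 (0.75) and Atp6ap1 (0.74), and Rhobtb2 by E130012A19Rik (0.84), Fam81a (0.81) and Lonrf1 (0.81), at 0.73, 0.68 and 0.71 without HD replicate 2. Each r is among the highest of many and has no test.

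Relatives and partners of the candidates were taken from 9 lists with 80 genes besides the candidates. In LD against Ctr, 2 of 74 measured list genes were called by limma (1 higher, 1 lower), where 292 of 20031 genes (1.46%) were called, and the median difference over the lists was -0.02 against 0.00 over all genes. The T cell receptor adaptor Lat (mean 9.89 normalized counts) was lower at -0.84 (SE 0.35, adjusted p = 0.999), and the sulfate transporter gene Slc13a1 was called at a mean of 1.03 normalized counts. Neither Scube2 nor Scube3 was called.

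In HD against Ctr, 6 of 74 list genes were called (5 higher, 1 lower), where 1019 of 20031 genes (5.09%) were. Of 12 measured genes of T cell receptor signalling, 3 were higher and none lower. They were Ptprc, the leukocyte phosphatase CD45, at 1.32 (SE 0.35, adjusted p = 0.166), Lcp2 at 0.91 and Vav1 at 0.88, all 3 of which microglia also express. The sum of 6 microglia markers, all measured, was 2613 to 5586 normalized counts in HD and 2089 to 2297 in Ctr, with every HD mouse above every Ctr mouse, and its part in these 3 genes was not tested. Of 5 relatives of Lhfpl1, Lhfp was higher at 0.48 and Lhfpl2 at 0.30. Nat8l, the enzyme that makes N-acetylaspartate, a substrate of the Slc13a3 transporter, was lower at -0.38 (SE 0.15, adjusted p = 0.435).

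With selenium, 1 of 71 list genes was called in Se_LD, the aconitase gene Aco1 at 0.19 (1.46% of all genes were called), and 3 of 71 in Se_HD, all higher than in Se_Ctr (2.06% of all genes). These 3 were Fbln1, the fibulin-1 gene, at 0.89 (SE 0.26, adjusted p = 0.9996), Emilin1, a glycoprotein of elastic fibres, at 0.65 (SE 0.26), and Slc13a4, the sulfate transporter of choroid plexus and meninges, at 0.95 (SE 0.42). Fbln1 averaged 84.0 ± 37.6 normalized counts in Se_HD and 42.3 ± 10.4 in Se_Ctr. The fibroblast marker sums given above (5265 to 7405 in Se_HD, 2254 to 4865 in Se_Ctr) did not overlap between these groups, and Se_HD replicate 4, with the highest sum, also had the highest Fbln1 (138) and Slc13a4 (435). Their part in these 3 genes was not tested. Besides the candidates, Fbln1 was 1 of 7 measured fibulin genes and Emilin1 was 1 of 14 measured elastic fibre genes, and the rest did not pass. Arl13a beside Xkrx, with a mean of 0.48 normalized counts, was not tested. None of the candidates' other nearest neighbours on either side had an unadjusted p under 0.05 in LD, Se_LD or Se_HD against its control. Nox1, which overlaps Xkrx, differed by 1.00 in Se_HD against Se_Ctr (SE 0.41, unadjusted p = 0.025, adjusted p = 0.9996 by limma). Nox1 lay near 0, at 0 to 1.17 normalized counts in Se_Ctr and 0.76 to 2.72 in Se_HD.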

How the data were processed

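Hippocampus RNA of 30 mice was sequenced by the authors as stranded single-end libraries. The authors trimmed reads with Trim Galore 0.4.2, mapped them with HISAT2 to NCBIM37 and counted them per gene with featureCounts. The deposited signal values are counts divided by DESeq2 size factors, with genes of a row sum under 10 removed. Symbols came from the annotation of that build (21326 of 21412 identifiers). Every value divided by its library's step gave a whole number of reads within 0.001 (100% of values).

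The members and lists were chosen with earlier results of these data known. Log2 values (pseudocount 1) entered limma 3.58.1 (trend, R 4.3.3) for genes with a sum of at least 10, separately for the 15 libraries of each diet and over all 30 for Se_HD against HD. A gene was called when the F test and the contrast both had an unadjusted p under 0.05. Adjusted p-values follow Benjamini-Hochberg across the full table of tested genes. Exact two-sided permutation tests took 5 mice against 5. Named genes were the 7 candidates, list genes called with a mean of at least 10 (Lat and Slc13a1 fell below and are named after their values were seen), the 3 genes most correlated with each candidate (2 of them are not reported here), separated genes beside the candidates, and nearest neighbours. Alternatives included edgeR 4.0.16 and DESeq2 1.42.0 on recovered reads, other pseudocounts and filters, and each library left out. The fits were tested on simulated data.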

Additional observations from a re-analysis of the deposited data

Results flagged for a closer look

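In groups of 5 mice, a mouse was marked when its gap to the nearest other mouse exceeded 0.71 of the range of its group (the 95% critical value of Dixon's test), and 5 of 48 groups looked at were marked where chance marks about 1 in 20. Scube1 in HD replicate 2 was the highest with a ratio of 0.781, at 823 normalized counts where the other four HD mice had 231 to 360.5. Fbln5 in Se_LD replicate 4 was the highest with 0.735, at 40.6 where the others had 30.7 to 33.3. Xkrx in LD replicate 4 was the highest with 0.742, at 10.9, and still below every Ctr mouse. Rhobtb2 in Ctr replicate 1 was the highest with 0.756, at 879 where the others had 687 to 734. The reads on genes in HD replicate 1 were the lowest of that group with 0.821, at 7133831.

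Rhobtb2 was marked for its mice in the 2 diets. All 5 LD mice lay below the Ctr mean and all 5 Se_LD mice above the Se_Ctr mean, and the LD difference minus the Se_LD difference was -186 normalized counts. This difference was not tested, since LD and Ctr chose the gene, and Se_LD against Se_Ctr by itself was not called (0.13, 95% interval -0.041 to 0.30).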

How the results depend on the processing

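Low read numbers limit Xkrx, Lhfpl1 and Zap70 most. Se_LD against Se_Ctr gave 0 of 7 candidates called under every alternative run, and so did Se_HD against HD. Scube1 in Se_LD against Se_Ctr moved to 0.049 with choroid plexus markers as covariate, and from -0.18 to 0.072 with one library left out.

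In Se_HD against Se_Ctr, 1 candidate was called. It was 2 with sets of library numbers as covariate, in edgeR and in DESeq2, 0 in limma without trend and with fibroblast markers as covariate, and 0 to 2 with one library left out, where Lhfpl1 ran from -0.34 to 0.079. In Se_HD against Se_LD, 2 were called. It was 1 with genes of a mean of at least 10 or with only the 2 groups, 0 in limma without trend (the same differences) and with fibroblast or choroid plexus markers as covariate (with the latter Fbln5 was 0.64 and Slc13a3 0.54, against 0.61 and 0.56), and 0 to 2 with one library left out. There Zap70 was -0.092 with fibroblast markers and ran from -0.051 to 0.47 with one library left out, and Lhfpl1 from -0.056 to 0.36. In Se_HD against HD the ranges with one library left out were -0.32 to 0.14 for Scube1, -0.43 to 0.041 for Lhfpl1, -0.31 to 0.16 for Fbln5 and -0.14 to 0.29 for Slc13a3. By the contrast alone, 4 list genes in LD and 10 in HD passed, against 2 and 6. The causes of these shifts were not tested.

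All genes called in Se_LD against Se_Ctr, Se_HD against Se_Ctr and Se_HD against Se_LD numbered 288, 405 and 487. With only the 2 groups they numbered 552, 951 and 846 (Se_HD against HD 1383, against 768), and in one fit of all 30 libraries 128, 221 and 243. Without Se_LD replicate 2 the first was 553 and without Se_Ctr replicate 4 it was 436. With fibroblast markers as covariate those of Se_HD were 758 and 947, and with choroid plexus markers Se_LD against Se_Ctr numbered 729 and Se_HD against Se_LD 969. The labels pair no mice, but each set of 6 consecutive library numbers held 1 mouse of each group, and with these sets as a block the calls of Slc13a3 and Fbln5 in Se_HD against Se_LD were kept and only the Fbln5 call in Se_HD against Se_Ctr changed among the candidates. The marker covariates were chosen after seeing the data.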
